A study of Mus musculus with 16 samples.

Results

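The genes described here encode the receptors through which monoamines, acetylcholine and other neuromodulators act on cells of the prefrontal cortex. They were chosen by name from gene families, without use of any measured value, and all 41 chosen genes were found among the 23284 genes of the deposited table. They comprise 4 dopamine, 13 serotonin and 6 noradrenaline receptor genes, 5 muscarinic and 7 nicotinic acetylcholine receptor genes, 3 opioid receptor genes, the cannabinoid receptor gene Cnr1 and 2 corticotropin-releasing hormone (CRH) receptor genes.

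Polyadenylated RNA of dissected prefrontal cortex was sequenced from 16 mice, 4 per genotype, to compare lines with elevated β-catenin, a line with reduced β-catenin and controls. β-catenin, encoded by Ctnnb1, is the effector of canonical Wnt signaling, and Apc encodes the scaffold of the complex that marks it for degradation. APC cKO mice carried floxed Apc alleles (APC fl/fl), Bcat cOE mice carried 1 Ctnnb1 allele with a floxed exon 3 (ctnnb1 fl(ex3)/+), whose removal leaves a stabilized protein, and APC/Bcat cKO mice carried floxed alleles of both genes (APC fl/fl and ctnnb1 fl/fl). All 3 lines carried the same CamKIIα-Cre-93 transgene, which is expressed mainly in forebrain excitatory neurons, and the dissected tissue also holds other cells, in which recombination was not assessed here. Control mice were Cre-negative littermates pooled from all lines, and mice of both sexes aged 2 to 3 months were used. The 4 libraries of a genotype are taken as separate mice, although the labels do not name the animals.

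Most neuromodulator receptors are G protein-coupled receptors. Receptors such as the D1-type dopamine and beta adrenergic receptors raise cyclic AMP, D2-type, alpha-2, muscarinic M2 and M4, opioid and CB1 receptors lower it, and alpha-1, M1, M3 and 5-HT2 receptors act through phospholipase C. Nicotinic receptors and the 5-HT3 receptor are ligand-gated ion channels. In the prefrontal cortex these receptors set the excitability of pyramidal cells and interneurons during attention, arousal and working memory.

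Levels are given as FPKM, fragments scaled to transcript length and to the mapped fragments of the library, so that genes can be compared per length. The number of fragments behind each value is unknown, and the count of genes listed at 0, from 5726 to 6649 per library, is the only guide to depth. Apc was at 43.9 ± 4.21 FPKM (SD, n = 4) in Control and 44.5 ± 5.11 FPKM in Bcat cOE, and at 11.7 ± 3.88 FPKM in APC cKO and 10.05 ± 2.30 FPKM in APC/Bcat cKO. The gene level of Ctnnb1 lay between 154.5 and 170.3 FPKM on average in every genotype. The study found elevated and reduced β-catenin as protein, by immunoblot, which this RNA level does not measure. A gene-level value also does not resolve the floxed exons. The summed level of 8 excitatory neuron markers was 1110 to 1430 FPKM over the 16 libraries, whereas that of 9 markers of striatal projection neurons ranged from 146 to 691 FPKM. By Xist and Y-linked genes, 1 Control and 1 APC cKO library were female and the other 14 male.

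In Control the most abundant of the 41 genes was Cnr1, which encodes the CB1 receptor, at 47.8 ± 4.22 FPKM (SD, n = 4). It was followed by the muscarinic receptor genes Chrm1 (32.04 ± 1.501 FPKM) and Chrm3 (19.5 ± 1.014 FPKM), by Htr2c (16.8 ± 3.32 FPKM) and by Adra1d (15.03 ± 1.56 FPKM). The Control libraries of Cnr1 did not overlap those of Chrm1, and those of Chrm1 did not overlap those of Chrm3. From Chrm3 downward, neighbours in the order mostly overlapped, so that of 40 neighbouring pairs only 4 were separated. On average 9 genes exceeded 10 FPKM, 21 lay between 1 and 10 FPKM and 11 lay under 1 FPKM. The least abundant was Htr2b, a receptor gene better known from peripheral tissues, at 0.0758 ± 0.0243 FPKM.

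Summed by family, the 5 muscarinic genes reached 67.2 ± 2.11 FPKM in Control (SD, n = 4), the 13 serotonin receptor genes 57.8 ± 5.17 FPKM, the 6 noradrenaline receptor genes 46.0 ± 2.25 FPKM and the 7 nicotinic genes 32.1 ± 1.13 FPKM. The sum over the 4 dopamine receptor genes was lower and much less even, at 11.3 ± 8.77 FPKM. Over all 41 genes the sum was 282 ± 11.5 FPKM in Control, 286 ± 17.8 FPKM in APC cKO, 276 ± 12.4 FPKM in Bcat cOE and 266 ± 19.2 FPKM in APC/Bcat cKO.

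**Figure D1:**
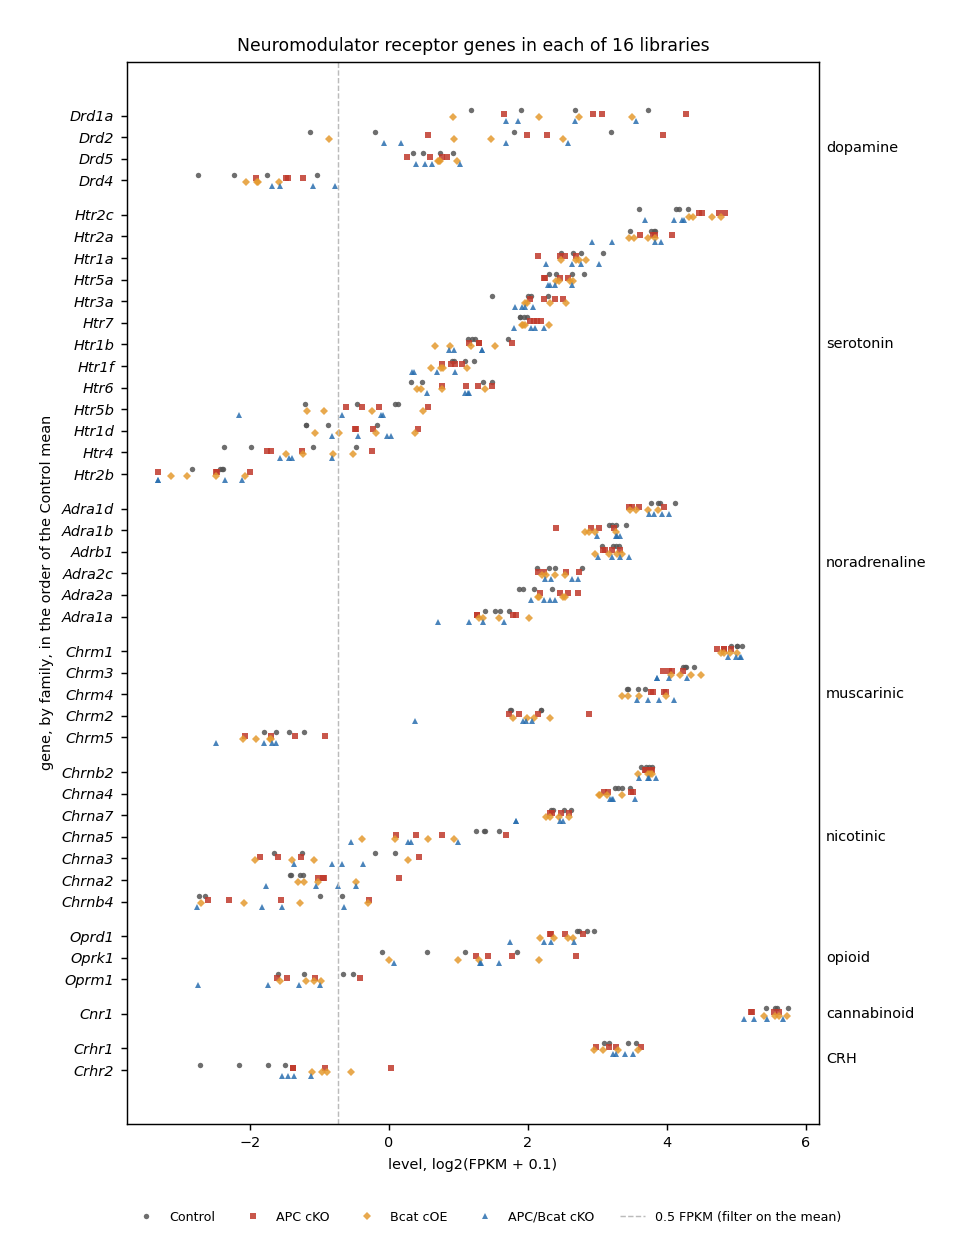
Level of each of the 41 receptor genes in the 16 libraries, as log2(FPKM + 0.1), with 1 point per library and genes ordered within families by their Control mean. Cnr1 and Chrm1 sit highest, points of Drd1a and Drd2 spread widely in every genotype, and the 8 genes whose mean is under 0.5 FPKM lie mostly left of the dashed line.

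All 16 libraries entered a single limma model of log2(FPKM + 0.1), which covered the 13978 genes that averaged 0.5 FPKM or more. Of the 41 receptor genes 33 passed this filter, and Drd4, Htr2b, Htr4, Chrm5, Chrna2, Chrnb4, Oprm1 and Crhr2 did not. The comparisons with Control share its 4 libraries and are therefore not independent of each other. In APC cKO against Control, 0 of the 33 genes had a Benjamini-Hochberg adjusted p under 0.05, where 0.0429% of all genes tested did, and the smallest adjusted p was 0.310, for Htr2c. At an unadjusted p under 0.05 the count was 7 of 33 (21.2%), 3 higher and 4 lower, beside 10% of all genes tested. In Bcat cOE against Control the adjusted count was again 0, beside 0.0143% of all genes, with a smallest adjusted p of 0.946. The unadjusted count there was 4 (12.1%), 1 higher and 3 lower, beside 5.07%. In APC/Bcat cKO against Control the adjusted count was 0, beside 0.207%, with a smallest adjusted p of 0.212, for Oprd1. The unadjusted count was 5 (15.2%), 1 higher and 4 lower, beside 14.2%.

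The mutant lines were also compared with each other. In APC cKO against APC/Bcat cKO limma gave 0 receptor genes at an adjusted p under 0.05, beside 0.215% of all genes, and 5 (15.2%) at an unadjusted p, beside 10.3%. In Bcat cOE against APC/Bcat cKO it gave 0, beside 0.229%, and 2 (6.06%), beside 11.9%. In APC cKO against Bcat cOE it gave 0, beside 0.0429%, and 1 (3.03%), beside 7.57%. When the 8 libraries of the lines with elevated β-catenin (APC cKO and Bcat cOE) were set against the 8 of Control and APC/Bcat cKO, the counts were 0, beside 0.0572%, and 6 (18.2%), beside 8.84%. The F test for any difference among the 4 genotypes gave 0, beside 0.25%, and 8 (24.2%), beside 12%. No receptor gene therefore passed the test in any of the 8 comparisons, and the genes described below are given by their values. Groups said below to lie apart are descriptions, as the share of all genes whose groups do so was not computed.

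The median log2 change of the 33 genes was -0.01 in APC cKO, -0.04 in Bcat cOE and -0.04 in APC/Bcat cKO against Control, where the medians of all genes tested were -0.0042, -0.0036 and 0.0031. In size, regardless of direction, the median change of the receptor genes was 0.22, 0.11 and 0.13, and that of all genes was 0.09, 0.08 and 0.11. The receptor genes also varied more between libraries of the same genotype, with a median SD of 0.24 on the log2 scale where that of all genes tested was 0.15.

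**Figure D2:**
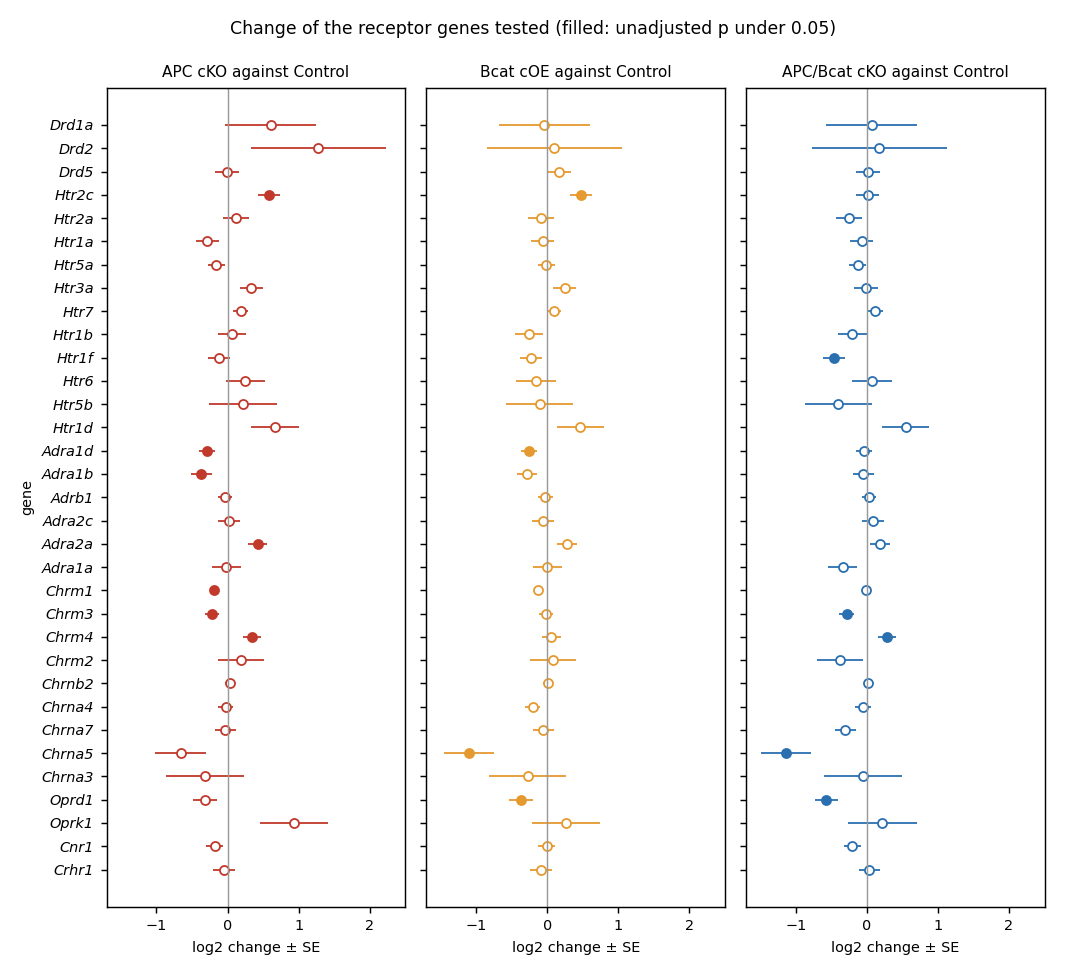
Log2 change of the 33 receptor genes tested in each mutant line against Control, with horizontal bars of 1 standard error from limma. Filled points have an unadjusted p under 0.05 (7 genes in APC cKO, 4 in Bcat cOE and 5 in APC/Bcat cKO), and the longest bars belong to Drd2 and Drd1a.

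The dopamine receptor genes Drd2 and Drd1a had the widest spread within genotypes of the 33 genes. Drd1a, which encodes the D1 receptor, was at 13.1, 6.28, 2.17 and 3.65 FPKM in the 4 Control libraries and at 3.04, 8.25, 19.2 and 7.53 FPKM in APC cKO. It was at 1.79, 6.53, 4.39 and 11.2 FPKM in Bcat cOE and at 3.52, 3.11, 6.30 and 11.6 FPKM in APC/Bcat cKO. Every genotype thus held both low and high libraries, and the 4 ranges overlapped. Drd2, which encodes the D2 receptor, ranged from 0.354 to 9.05 FPKM in Control and from 1.37 to 15.4 FPKM in APC cKO. Its log2 change in APC cKO against Control, 1.28, was the largest of the 33 genes and had a standard error (SE) of 0.95 (limma adjusted p = 0.675). The within-genotype SD of Drd2, 1.53 on the log2 scale, was above that of 99.3% of all genes tested, and that of Drd1a, 1.03, above that of 98.7%.

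The order of the libraries was nearly the same for Drd1a and Drd2 as for a list of markers of striatal projection neurons that contains no receptor gene from this set (Rgs9, Ppp1r1b, Adora2a, Gpr6, Tac1, Penk, Pde10a, Foxp1 and Rarb). All 9 of these markers were detected, and their summed level was 146 to 514 FPKM in Control, 172 to 691 FPKM in APC cKO, 151 to 373 FPKM in Bcat cOE and 171 to 504 FPKM in APC/Bcat cKO. The highest sums in each genotype were those of Control replicate 1, APC cKO replicate 3, Bcat cOE replicate 4 and APC/Bcat cKO replicate 4, the same libraries in which Drd1a and Drd2 were highest. Across the 16 libraries, after centring on the genotype means, Drd1a correlated with the striatal sum with Pearson's r = 0.95 (permutation p = 2e-05, adjusted p = 0.00454) and Spearman's rho = 0.96 (permutation p = 5e-05, adjusted p = 0.0114). Without the 2 libraries farthest from the median sum, r was 0.94. For Drd2 r was 0.95 (permutation p = 1e-05, the smallest the permutations can give, adjusted p = 0.00454) and rho was 0.96 (permutation p = 1e-05, adjusted p = 0.00454), with r = 0.92 without those libraries. D1 and D2 receptors are abundant on the projection neurons of the striatum, which lies beneath the frontal cortex. In tissue RNA, more cells of a type and more RNA per cell cannot be told apart.

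In all, 454 such correlations were computed, of the 41 receptor genes with 11 marker lists and of 3 nicotinic gene pairs, with 2-sided permutations within genotypes and adjustment over the 454. Only 5 passed an adjusted p under 0.05 by both measures, and 4 of these were with the striatal sum. Besides Drd1a and Drd2 they were Oprk1, the kappa opioid receptor gene, with r = 0.85 (permutation p = 0.00028, adjusted p = 0.0318) and rho = 0.85 (permutation p = 0.0002, adjusted p = 0.0182), and Htr4, the 5-HT4 receptor gene, with r = 0.91 (permutation p = 8e-05, adjusted p = 0.0121) and rho = 0.92 (permutation p = 0.00014, adjusted p = 0.0182). Without the 2 farthest libraries r was 0.77 for Oprk1 and 0.84 for Htr4. The fifth was Htr5a, the 5-HT5A receptor gene, which was lower where 11 septum and basal forebrain markers were higher, with r = -0.70 (permutation p = 0.00057, adjusted p = 0.0370) and rho = -0.80 (permutation p = 0.0002, adjusted p = 0.0182), and r = -0.73 without the 2 farthest libraries. The summed level of those markers was only 12.3 to 29.2 FPKM. Centring on the 4 sets that the table's column names form, each with 1 library of every genotype, left r at 0.95 for Drd1a, 0.97 for Drd2, 0.81 for Oprk1, 0.95 for Htr4 and -0.79 for Htr5a. Each genotype holds 4 libraries, too few for a correlation within it.

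**Figure D3:**
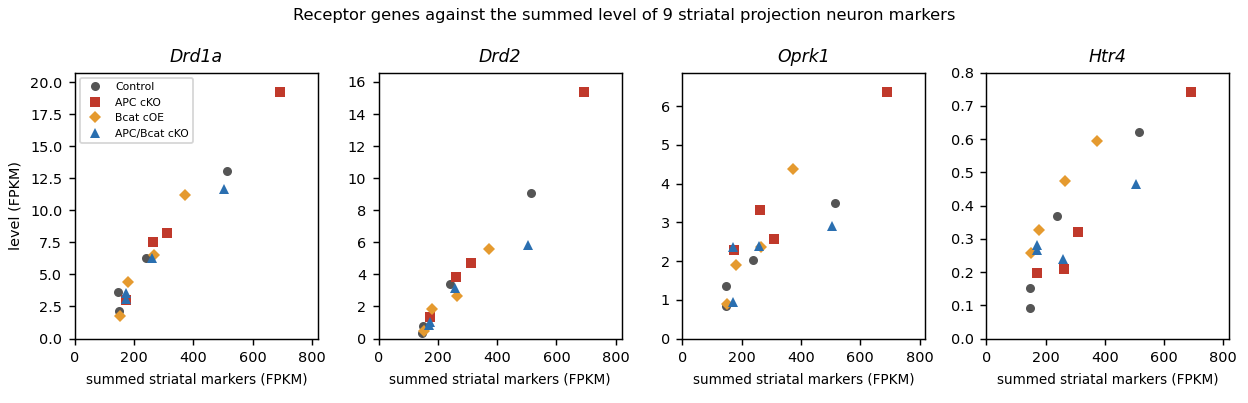
Level of Drd1a, Drd2, Oprk1 and Htr4 (FPKM) against the summed level of 9 striatal projection neuron markers (FPKM), with 1 point per library. All 4 genes climb with the sum from its lowest value, 146 FPKM, to its highest, 691 FPKM, and each genotype has libraries at both low and higher sums.

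With the log2 striatal sum as a covariate, the log2 change of Drd2 in APC cKO against Control went from 1.28 to 0.39 and that of Drd1a from 0.61 to 0.0066. Oprk1 was at 3.50, 2.03, 0.836 and 1.37 FPKM in Control and at 2.28, 2.57, 6.36 and 3.31 FPKM in APC cKO, so that the groups overlapped. Its log2 change there was 0.93 (SE 0.48, limma adjusted p = 0.535) and became 0.54 with the covariate. Leaving out the library with the highest sum in each genotype did not lower these changes, which were then 1.45 for Drd2 (SE 0.81), 0.63 for Drd1a (SE 0.52) and 0.96 for Oprk1 (SE 0.42). Drd5, for the D1-like D5 receptor, was more even, at 1.101 to 1.93 FPKM across the study. Drd4, for the D2-like D4 receptor, lay at 0.0489 to 0.482 FPKM. In a fit without the filter its log2 change against Control was 0.66 in APC/Bcat cKO (SE 0.30, limma adjusted p = 0.420). It was 0.42 in APC cKO and 0.09 in Bcat cOE.

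Htr2c encodes the 5-HT2C receptor, which couples to phospholipase C. It lies on chromosome X from 146962513 to 147197277 (mm10, GENCODE M21), and no other gene of that annotation overlaps it. It was at 19.7, 18.0, 12.01 and 17.5 FPKM in Control and at 17.1, 12.8, 19.0 and 18.6 FPKM in APC/Bcat cKO. In the lines with elevated β-catenin it was at 22.6, 22.02, 28.4 and 26.9 FPKM in APC cKO and at 19.8, 24.97, 20.6 and 27.2 FPKM in Bcat cOE. All 8 libraries of these lines lay above all 8 of the other groups, narrowly so between the lowest Bcat cOE library and the highest Control library. The log2 change against Control was 0.59 in APC cKO (SE 0.16, adjusted p in limma = 0.310), 0.47 in Bcat cOE (SE 0.16, adjusted p = 0.946) and 0.01 in APC/Bcat cKO (SE 0.16, adjusted p = 0.985). For the elevated lines against the other groups it was 0.52 (SE 0.11, unadjusted p = 0.000264, adjusted p = 0.175). The study selected Htr2c on these same libraries, so its pattern is not independent evidence.

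The values of Htr2c against the striatal sum were r = 0.70 (permutation p = 0.012, adjusted p = 0.155) and rho = 0.81 (permutation p = 0.0016, adjusted p = 0.0602), and r = 0.64 without the 2 farthest libraries. With that sum as a covariate its log2 change in the elevated lines against the others was 0.49 (SE 0.09, limma adjusted p = 0.0673), and without the library of the highest sum in each genotype it was 0.52 (SE 0.12, adjusted p = 0.458). Htr2c is also abundant in choroid plexus, whose 11 markers summed to 2.98 to 11.2 FPKM. By genotype this sum was 4.68 to 7.66 FPKM in Control and 3.92 to 11.2 FPKM in APC cKO. It was 3.94 to 8.99 FPKM in Bcat cOE and 2.98 to 10.4 FPKM in APC/Bcat cKO. Within genotypes the correlation of Htr2c with that sum was r = -0.20 (permutation p = 0.48, adjusted p = 0.8245) and rho = -0.26 (permutation p = 0.37, adjusted p = 0.734), and r = -0.42 without the 2 farthest libraries. The sum hides differences between the markers, of which only 4 of 11 passed the filter. In APC cKO replicate 3, Htr2c was at its highest (28.4 FPKM). Kl (1.12 FPKM), Folr1 (0.915 FPKM), Otx2 (1.11 FPKM) and Sostdc1 (1.66 FPKM) were at their highest there too. Ttr (0.591 FPKM), Aqp1 (0.551 FPKM) and the other listed markers were not.

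Several marker lists held genes with an unadjusted p under 0.05 between the elevated lines and the other groups. In that comparison 8.84% of all genes tested reached this level. Of septum and basal forebrain markers 3 of 7 tested were higher at it, as were 3 of 6 of meninges and fibroblasts and 2 of 6 of astrocytes. Of choroid plexus markers 1 of 4 tested, Kl, was higher at it, and 4 of 6 oligodendrocyte markers were lower at it. Of 9 interneuron markers 1 was higher and 1 lower at it. By limma 0 of these genes passed the adjusted test. The septum sum was 13.6 to 17.5 FPKM in Control, 14.4 to 29.2 FPKM in APC cKO, 12.3 to 25.5 FPKM in Bcat cOE and 12.6 to 15.3 FPKM in APC/Bcat cKO. The sum of meninges and fibroblasts was 26.6 to 47.3, 37.7 to 52.5, 35.7 to 46.8 and 26.3 to 42.6 FPKM in the same order. Within genotypes the values of Htr2c against the septum sum were r = 0.48 (permutation p = 0.048, adjusted p = 0.286) and rho = 0.51 (permutation p = 0.063, adjusted p = 0.370), and r = 0.31 without the 2 farthest libraries. The part of these cells in the difference of Htr2c between genotypes was not tested.

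Like Htr2c, the other serotonin receptor genes did not pass the adjusted test. Htr2a, for the 5-HT2A receptor of cortical pyramidal cells, was at 14.1, 13.9, 10.9 and 13.6 FPKM in Control and spanned 7.46 to 16.7 FPKM over the 16 libraries. Htr1f, for the inhibitory 5-HT1F receptor, was at 1.78, 2.23, 1.81 and 2.04 FPKM in Control and at 1.83, 1.15, 1.51 and 1.19 FPKM in APC/Bcat cKO. Those groups overlapped through a single APC/Bcat cKO library, and the log2 change was -0.46 (SE 0.15, limma adjusted p = 0.276), or -0.30 with a pseudocount of 1. Htr3a, for a subunit of the 5-HT3 channel of interneurons, was at 3.86 ± 0.874 FPKM (SD, n = 4) in Control and 3.75 ± 0.292 FPKM in APC/Bcat cKO, and at 4.84 ± 0.692 FPKM in APC cKO and 4.57 ± 0.947 FPKM in Bcat cOE. In the elevated lines against the other groups its log2 change was 0.30 (SE 0.12, limma adjusted p = 0.475), and the ranges of the 4 genotypes overlapped.

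Of the remaining serotonin receptor genes, Htr1a, the main inhibitory receptor gene of cortical pyramidal cells, lay at 4.32 to 8.40 FPKM, Htr5a at 4.58 to 6.87 FPKM and Htr7 at 3.39 to 4.82 FPKM. Lower levels were found for Htr1b (1.48 to 3.32 FPKM), Htr6 (1.15 to 2.70 FPKM), Htr1d (0.336 to 1.23 FPKM) and Htr5b (0.123 to 1.38 FPKM). The log2 change of Htr1d against Control was 0.67 in APC cKO, 0.46 in Bcat cOE and 0.55 in APC/Bcat cKO (SE 0.33 each), with overlapping groups. For Htr7 all APC cKO libraries (3.99 to 4.435 FPKM) lay above those of Control (3.58 to 3.86 FPKM). Its log2 change there was 0.18 (SE 0.10, limma adjusted p = 0.5625). Htr4 lay at 0.0921 to 0.741 FPKM, and Htr2b was listed at 0 in 3 libraries and reached at most 0.150 FPKM. The table's locus for Htr2b runs into Psmd1, the gene on the other strand, and the sources used here do not say whether strand was used in counting. None of the 7 of these genes that were tested had an unadjusted p under 0.05 against Control in any line.

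Among the noradrenaline receptor genes, Adra1b, Adra1d and Adra2a had an unadjusted p under 0.05 and did not pass the adjusted test. Adra1b, for an alpha-1 receptor, was at 8.89, 10.6, 9.14 and 9.54 FPKM in Control and at 5.18, 9.37, 7.44 and 8.06 FPKM in APC cKO. It was at 7.26, 6.94, 9.52 and 7.68 FPKM in Bcat cOE and at 9.88, 7.90, 9.63 and 9.56 FPKM in APC/Bcat cKO. The log2 change against Control was -0.37 in APC cKO (SE 0.15, limma adjusted p = 0.420), -0.28 in Bcat cOE and -0.05 in APC/Bcat cKO. Without APC cKO replicate 1, the library of 5.18 FPKM, the first became -0.20. Adra1d, the most abundant noradrenaline receptor gene and another of the alpha-1 class, was at 17.2, 14.6, 14.8 and 13.5 FPKM in Control. It was at 12.02, 15.5, 10.9 and 11.2 FPKM in APC cKO, 14.5, 11.7, 13.1 and 11.01 FPKM in Bcat cOE and 16.2, 13.9, 15.2 and 13.3 FPKM in APC/Bcat cKO. The table's locus for Adra1d (131127412 to 131604824 on chromosome 2) is wider than the annotated gene (131545850 to 131562283). Gm14285 overlaps that gene on the other strand, so the limit given for Htr2b holds here too. Both Adra1b and Adra1d were lower on average in the elevated lines, with overlapping groups. The log2 change of Adra1d against Control was -0.28 in APC cKO and -0.26 in Bcat cOE, and -0.16 and -0.13 without the library of the highest striatal sum in each genotype. For the elevated lines against the other groups the log2 change of Adra1d was -0.25 (SE 0.08, limma adjusted p = 0.382) and that of Adra1b was -0.30 (SE 0.10, adjusted p = 0.398).

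Adra2a, for the alpha-2A receptor that inhibits noradrenaline release and acts on prefrontal pyramidal cells, went the other way. It was at 3.58, 4.15, 3.70 and 4.98 FPKM in Control, 6.499, 4.42, 5.86 and 5.41 FPKM in APC cKO, 4.34, 5.60, 4.39 and 5.68 FPKM in Bcat cOE and 4.02, 5.14, 4.87 and 4.60 FPKM in APC/Bcat cKO. The log2 change against Control was 0.43 in APC cKO (SE 0.14, limma adjusted p = 0.328), 0.28 in Bcat cOE and 0.19 in APC/Bcat cKO. Adra2c (4.29 to 6.73 FPKM), Adrb1, for the beta-1 receptor (7.69 to 10.9 FPKM), and Adra1a (1.54 to 3.93 FPKM) had overlapping groups in every comparison with Control.

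Chrm1, for the M1 receptor of pyramidal cells, was the most evenly measured of the G protein-coupled receptor genes, with a within-genotype SD of 0.08 on the log2 scale. It was at 30.1, 33.8, 32.1 and 32.2 FPKM in Control, 26.2, 30.1, 28.2 and 28.3 FPKM in APC cKO, 28.1, 29.8, 32.1 and 27.3 FPKM in Bcat cOE and 33.04, 33.4, 31.7 and 29.4 FPKM in APC/Bcat cKO. The APC cKO libraries lay below those of Control, with the highest of them just under the lowest Control library, and the log2 change was -0.18 (SE 0.06, limma adjusted p = 0.350). It was -0.13 in Bcat cOE (SE 0.06, adjusted p = 0.946) and -0.01 in APC/Bcat cKO (SE 0.06, adjusted p = 0.978).

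Chrm3, for the M3 receptor, was at 18.6, 20.9, 19.1 and 19.4 FPKM in Control, 16.2, 18.7, 15.3 and 16.8 FPKM in APC cKO, 16.6, 20.3, 22.4 and 18.2 FPKM in Bcat cOE and 19.5, 14.4, 16.2 and 14.4 FPKM in APC/Bcat cKO. Its log2 change was -0.22 in APC cKO (SE 0.10, limma adjusted p = 0.497) and -0.28 in APC/Bcat cKO (SE 0.10, adjusted p = 0.281), both lines with floxed Apc, and -0.02 in Bcat cOE. Chrm4, for the cyclic AMP-lowering M4 receptor, was at 12.8, 11.9, 10.7 and 10.7 FPKM in Control, 15.7, 13.9, 15.5 and 13.6 FPKM in APC cKO, 10.7, 10.1, 12.03 and 15.7 FPKM in Bcat cOE and 13.2, 17.0, 11.8 and 14.6 FPKM in APC/Bcat cKO. All APC cKO libraries lay above those of Control, and the log2 change was 0.35 (SE 0.13, limma adjusted p = 0.386). It was 0.28 in APC/Bcat cKO (SE 0.13, adjusted p = 0.335) and 0.06 in Bcat cOE. Chrm2, for the M2 receptor, varied from 1.20 to 7.24 FPKM, and Chrm5 lay at 0.0772 to 0.430 FPKM.

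Chrna5 encodes the accessory alpha-5 subunit of nicotinic receptors, which is known from layer 6 pyramidal cells of the prefrontal cortex. It had the lowest log2 change of all 33 genes in each of the 3 comparisons with Control. It was at 2.91, 2.28, 2.47 and 2.52 FPKM in Control, 0.977, 3.11, 1.21 and 1.60 FPKM in APC cKO, 0.662, 1.38, 1.81 and 0.967 FPKM in Bcat cOE and 1.89, 1.15, 1.11 and 0.586 FPKM in APC/Bcat cKO. All libraries of Bcat cOE and of APC/Bcat cKO lay below all Control libraries, whereas in APC cKO 1 library lay above them. The log2 change was -0.66 in APC cKO (SE 0.35, limma adjusted p = 0.551), -1.10 in Bcat cOE (SE 0.35, adjusted p = 0.946) and -1.14 in APC/Bcat cKO (SE 0.35, adjusted p = 0.247). With each library left out, the value in APC/Bcat cKO lay between -1.38 and -0.87 and that in Bcat cOE between -1.31 and -0.87. With a pseudocount of 1 they were -0.73 and -0.71. Within genotypes the values of Chrna5 against the summed excitatory neuron markers were r = 0.80 (permutation p = 0.0026, adjusted p = 0.0713) and rho = 0.78 (permutation p = 0.0067, adjusted p = 0.118), and r = 0.75 without the 2 farthest libraries. These did not pass the adjusted test, and their part in its level was not tested.

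Chrna5 is the first of 3 neighbouring nicotinic genes on chromosome 9. It lies on the forward strand from 54980880 to 55007779, followed on the reverse strand by Chrna3 from 55010111 to 55026562 and Chrnb4 from 55028154 to 55048779 (mm10, GENCODE M21). Chrna3 and Chrnb4, subunit genes of the ganglionic type of receptor, were sparse, at 0.162 to 1.25 FPKM and 0.0471 to 0.721 FPKM. They were high and low in the same libraries, with r = 0.89 (permutation p = 0.00037, adjusted p = 0.0336) and rho = 0.81 (permutation p = 0.0022, adjusted p = 0.0758). The corresponding values of Chrna5 were r = -0.50 (permutation p = 0.089, adjusted p = 0.417) and rho = -0.42 (permutation p = 0.14, adjusted p = 0.520) with Chrna3, and r = -0.41 (permutation p = 0.15, adjusted p = 0.517) and rho = -0.29 (permutation p = 0.33, adjusted p = 0.703) with Chrnb4. Without the 2 libraries farthest from the median of the second gene, r was 0.84 for Chrna3 with Chrnb4, -0.20 for Chrna5 with Chrna3 and -0.16 for Chrna5 with Chrnb4.

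Chrnb2 and Chrna4 encode the subunits of the main brain receptor, alpha-4 beta-2. Chrnb2, the most abundant nicotinic gene, was at 12.8, 13.7, 13.3 and 12.3 FPKM in Control and at 11.9 to 14.3 FPKM over all 16 libraries, with log2 changes of 0.03, 0.01 and 0.02 against Control (SE 0.06 each, limma adjusted p from 0.906 to 0.999). Its within-genotype SD, 0.08, was the lowest of the 33 genes. The table's locus for Chrnb2 (89715022 to 89764632 on chromosome 3) is wider than the annotated gene (89746195 to 89764632). Adar overlaps that gene on the other strand, so the limit given for Htr2b holds for Chrnb2 too. Chrna4 lay at 7.999 to 11.5 FPKM with a within-genotype SD of 0.16, and its log2 change in Bcat cOE against Control was -0.20 (SE 0.11). Chrna7, for the homomeric alpha-7 receptor, lay at 3.44 to 6.06 FPKM. Chrna2, for the alpha-2 subunit, lay at 0.193 to 1.009 FPKM. In a fit without the filter its log2 change against Control was 0.65 in APC cKO (SE 0.30, limma adjusted p = 0.522). It was 0.33 in Bcat cOE and 0.33 in APC/Bcat cKO.

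Promoter sequences of RefSeq (GRCm38.p6) were found for 33 of the 41 genes and were searched for CTTTGA, the core of the sites bound by TCF/LEF, the DNA-binding partners of β-catenin. The search covered the 250 bases before each transcript start on both strands. The motif was found in 5 of the 33 genes (15.2%), Chrna5, Chrnb2, Drd2, Htr1b and Htr2b, where 15.8% of all genes with a promoter in the table hold it. Chrna5 is the only one of the 11 genes with an unadjusted p under 0.05 named above that is among them. For Chrna5, Chrnb2 and Drd2, which are the lowest in change, the steadiest and the most variable of the genes tested, the stretch around the first match is shown 5′ to 3′ along the gene, with the motif in capitals. It reads TCAAAG, since in all 3 it lies on the opposite strand. It begins 15 bases before the start in Chrna5 (chr9:54980818-54980879, forward strand), 64 bases in Chrnb2 (chr3:89764644-89764743, reverse strand) and 199 bases in Drd2 (chr9:49340157-49340256, forward strand).
Chrna5: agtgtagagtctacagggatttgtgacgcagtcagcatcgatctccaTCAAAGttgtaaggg
Chrnb2: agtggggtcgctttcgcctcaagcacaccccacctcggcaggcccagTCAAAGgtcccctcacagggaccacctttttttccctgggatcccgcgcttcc
Drd2: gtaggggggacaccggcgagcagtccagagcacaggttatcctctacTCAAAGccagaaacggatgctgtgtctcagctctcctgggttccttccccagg

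Oprd1, which encodes the delta opioid receptor, was at 7.64, 6.54, 7.11 and 6.43 FPKM in Control, 5.71, 6.81, 4.88 and 4.95 FPKM in APC cKO, 5.86, 5.07, 6.17 and 4.43 FPKM in Bcat cOE and 6.23, 4.60, 4.94 and 3.23 FPKM in APC/Bcat cKO. All Bcat cOE and APC/Bcat cKO libraries lay below all Control libraries, and in APC cKO 3 of 4 did. The log2 change was -0.32 in APC cKO (SE 0.16, adjusted p in limma = 0.538), -0.37 in Bcat cOE (SE 0.16, adjusted p = 0.946) and -0.57 in APC/Bcat cKO (SE 0.16, adjusted p = 0.212). Without the library of the highest striatal sum in each genotype the last values were -0.23 in Bcat cOE and -0.35 in APC/Bcat cKO. Oprm1, for the mu receptor, lay at 0.0488 to 0.648 FPKM.

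Cnr1 was at 43.0, 47.1, 48.0 and 53.2 FPKM in Control, 37.02, 46.3, 37.2 and 48.9 FPKM in APC cKO, 46.9, 48.8, 52.8 and 42.2 FPKM in Bcat cOE and 51.0, 34.3, 43.4 and 38.1 FPKM in APC/Bcat cKO. The ranges overlapped, and the log2 changes were -0.18, -0.0048 and -0.21 (SE 0.12 each). Crhr1, the receptor gene for CRH in cortical neurons, was at 8.42, 10.7, 11.7 and 8.84 FPKM in Control with log2 changes of -0.05 in APC cKO, -0.08 in Bcat cOE and 0.04 in APC/Bcat cKO (SE 0.15 each).

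Crhr2, the second CRH receptor gene, is among the genes the study selected on these libraries and fell below the filter. It was at 0.124, 0.200, 0.256 and 0.0516 FPKM in Control, 0.283, 0.285, 0.923 and 0.429 FPKM in APC cKO, 0.439, 0.366, 0.413 and 0.583 FPKM in Bcat cOE and 0.289, 0.245, 0.361 and 0.267 FPKM in APC/Bcat cKO. All APC cKO and Bcat cOE libraries lay above all Control libraries, and 1 APC/Bcat cKO library fell within the Control range. In a fit without the filter, the log2 change against Control was 1.12 in APC cKO (SE 0.31, limma adjusted p = 0.333), 1.15 in Bcat cOE (SE 0.31, adjusted p = 0.934) and 0.66 in APC/Bcat cKO (SE 0.31, adjusted p = 0.421).

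**Figure D4:**
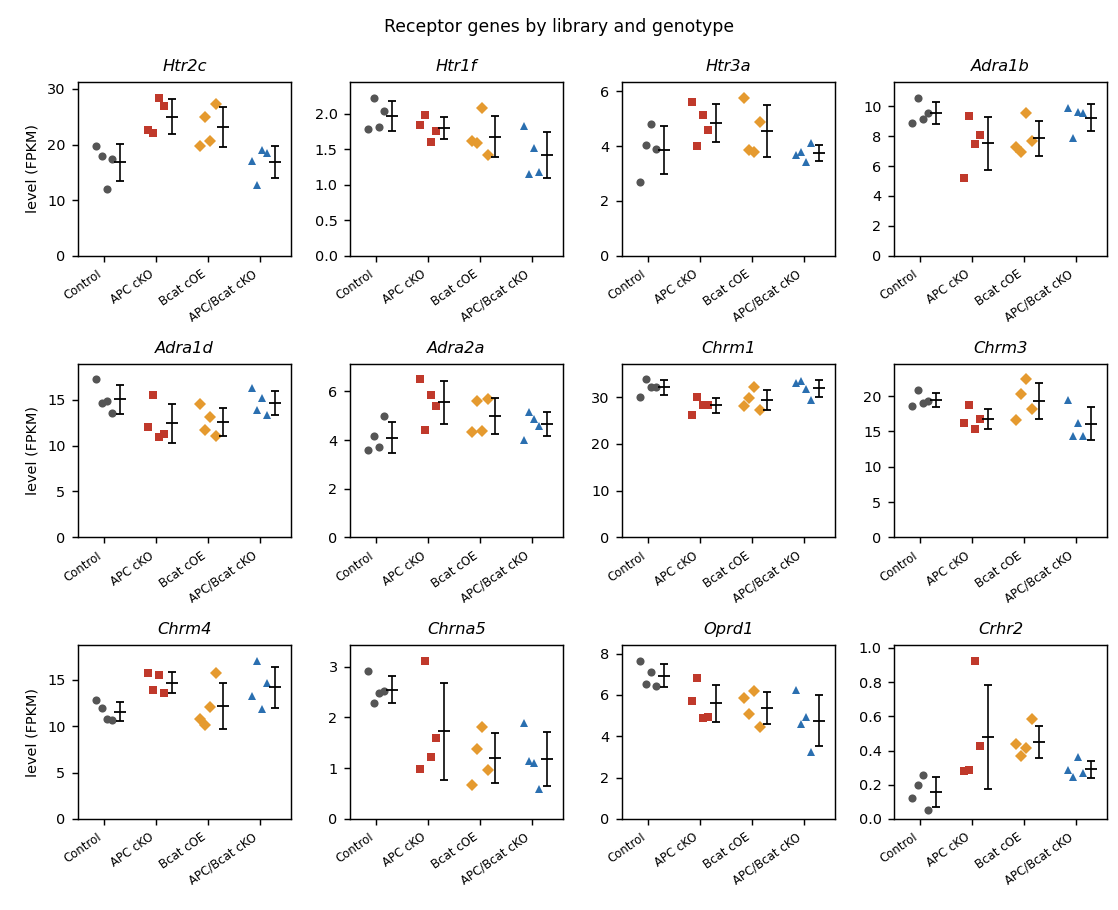
Level in FPKM of the 11 genes with an unadjusted p under 0.05 in the comparisons with Control, of the elevated lines or in the F test, and of Crhr2, with 1 point per library and black bars for the mean ± SD of the 4 libraries of a genotype. Htr2c is above 19.7 FPKM only in APC cKO and Bcat cOE libraries, and Chrna5 and Oprd1 are lowest on average in APC/Bcat cKO.

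The other genes of these signaling systems were read from 4 lists of 117 genes in all, of which 90 could be tested and 0 had an adjusted p under 0.05 by limma in any comparison. Among 15 tested of 30 other receptor genes, from these and further families, the gene with the smallest p was Ntsr1, a neurotensin receptor gene. It was at 1.38 to 2.14 FPKM in Control and 2.41 to 3.07 FPKM in APC/Bcat cKO, a log2 change of 0.57 (SE 0.14, adjusted p = 0.155), with 3 of the 15 genes at an unadjusted p under 0.05 there, beside 14.2% of all genes tested. Among 46 tested of 47 G protein, second messenger and adaptor genes it was Grk5, a receptor kinase gene, at 6.33 to 10.7 FPKM in Bcat cOE and 4.80 to 6.28 FPKM in APC/Bcat cKO, a log2 change of 0.57 (SE 0.14, adjusted p = 0.117), with 2 of the 46 at an unadjusted p under 0.05, a lower share than the 11.9% of all genes. Among 15 tested of 17 peptide ligand and endocannabinoid enzyme genes it was Mgll, for the lipase that degrades the endocannabinoid 2-arachidonoylglycerol. Its log2 change in the elevated lines against the other groups was -0.14 (SE 0.04, adjusted p = 0.366), with 4 of the 15 at an unadjusted p under 0.05, beside 8.84%. Among 14 tested of 23 genes of transmitter synthesis, transport and breakdown it was Pnmt, for the adrenaline-forming enzyme, which was no higher than 1.14 FPKM in any library. Its log2 change in Bcat cOE against APC/Bcat cKO was -1.22 (SE 0.56, adjusted p = 0.403), with 1 of the 14 at an unadjusted p under 0.05, beside 11.9%.

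Among the markers of other cells, those of oligodendrocytes were called most often at an unadjusted p. Of 6 oligodendrocyte markers, 6 had an unadjusted p under 0.05 in APC cKO against APC/Bcat cKO, beside 10.3% of all genes tested, and 0 an adjusted one, beside 0.215%. Their summed level was 626 to 751 FPKM in APC cKO, 914 to 1032 FPKM in APC/Bcat cKO, 712 to 1089 FPKM in Control and 715 to 929 FPKM in Bcat cOE. Their part in the values of the receptor genes was not tested.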

How the data were processed

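Paired-end libraries from 16 mice, grouped by the genotype in their labels, were processed by the authors with TopHat2 2.0.10 on mm10 and Cuffdiff 2.1.1, per the labels' processing notes. The deposited table holds 1 value per gene and library on a log2 scale made by the authors, read as log2(FPKM + 1). The base is not stated. Read this way, FPKM times transcript length in kilobases sums to 1087094 to 1155332 per library, and read as natural logs to 9187475 to 10011033. FPKM as defined gives a sum close to the former, so log2 was used. Values were turned back into FPKM. Counts are not part of the table, so depth is unknown, and no error from counting could be given. All value columns were used (0 left out).

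Genes were compared with limma 3.58.1 (R 4.3.3, trended empirical Bayes) on log2(FPKM + 0.1), which understates the change of low genes, with 12 residual degrees of freedom and Benjamini-Hochberg adjustment over the 13978 genes averaging 0.5 FPKM or more. On simulated data for APC cKO against Control over these 13978 genes, it called 88% of 100 genes changed by 1 and 95% of 100 changed by 2 on the log2 scale, and 12 unchanged genes. The changed genes were drawn from all genes tested. Changes under 1, as most of those of the receptor genes are, were not simulated, so the power to call them is unknown. Library values are given for genes with an unadjusted p under 0.05 against Control, in the elevated lines or in the F test, for the most abundant gene of each family, and for Htr2c and Crhr2. Of each pathway list, the gene with the smallest p is named where none passed. Genes and lists were chosen with earlier results of these data known. From the striatal marker list 1 gene was left out of every sum, as it is not reported here. Correlations used log2(FPKM + 0.1) and 100000 permutations within genotypes.

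The alternatives were a pseudocount of 1 or 0.01, a filter at 2 FPKM or none, scaling by quantiles or by median ratios, an untrended fit, only the groups compared, sex or the number in the title in the model, an adjusted p under 0.01 and each library left out. Added after seeing the data were the set in the column names as a block, the striatal sum as a covariate, and leaving out the library with the highest striatal sum in each genotype. Same-numbered libraries of different genotypes did not deviate together (r from -0.218 to 0.322, above 0.1 in 4 of 21 pairs), so the numbers were not taken to pair mice.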

Additional observations from a re-analysis of the deposited data

Results flagged for a closer look

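Within each genotype the 4 libraries of each receptor gene were checked for a single library far from the others, by the gap to its neighbour as a share of the whole range, set against Dixon's critical ratio. Of 164 groups 11 passed, where about 8.2 would by chance. High libraries were Drd5 in Bcat cOE replicate 2 (1.87 FPKM, others 1.53 to 1.56, ratio 0.921), Htr1b in Control replicate 1 (3.18 FPKM, others 2.09 to 2.26, ratio 0.849) and Htr7 in Bcat cOE replicate 4 (4.82 FPKM, others 3.65 to 3.79, ratio 0.886). Chrna2 in APC cKO replicate 1 (1.009 FPKM, others 0.395 to 0.421, ratio 0.957) and Chrna3 in the same library (1.25 FPKM, others 0.175 to 0.316, ratio 0.869) were also high, as was Chrna4 in APC/Bcat cKO replicate 1 (11.5 FPKM, others up to 9.24, ratio 0.903).

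Low libraries were Htr2a in Control replicate 3 (10.9 FPKM, others 13.6 to 14.1, ratio 0.840), Htr2b in Control replicate 2 (0.0395 FPKM, others 0.0847 to 0.0904, ratio 0.887) and Htr6 in APC/Bcat cKO replicate 3 (1.36 FPKM, others 2.03 to 2.11, ratio 0.897). So were Adra1b in APC/Bcat cKO replicate 2 (7.90 FPKM, others 9.56 to 9.88, ratio 0.841) and Chrm2 in APC/Bcat cKO replicate 4 (1.20 FPKM, others 3.72 to 4.08, ratio 0.878).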

How the results depend on the processing

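The count of receptor genes with an adjusted p under 0.05 stayed 0 in all 8 comparisons under every alternative run. The stricter threshold of 0.01 could not have raised that count. The 22 changes of single genes at an unadjusted p under 0.05 kept their direction in all 629 results under the alternatives and never passed the adjusted threshold. They were picked on these same libraries, so a kept direction is not independent support. The count at an unadjusted p under 0.05 in APC/Bcat cKO against Control, 5, was 3 with a mean of at least 2 FPKM, which tests fewer genes, and 3 to 9 with each library left out (9 without APC/Bcat cKO replicate 1, 3 without replicate 2 or 4). In Bcat cOE against Control, 4, it was 2 without the 4 libraries of the highest striatal sum and 2 to 8 with each library left out (2 without Bcat cOE replicate 2, 8 without replicate 3). The median log2 change in APC cKO against Control, -0.01, was -0.0271 to 0.0743 with each library left out, highest without APC cKO replicate 4. The cause of these shifts was not tested. The title number as a replicate block changed no adjusted call. Depth is unknown, so genes under 1 FPKM are the least certain.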
